A study of Mus musculus with 6 samples.

Results

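Transglutaminases and peptidylarginine deiminases are enzymes that modify the structural proteins of hardening keratinocytes. Measured here were Tgm1, Tgm2, Tgm3 and Tgm5 of the first family and Padi1, Padi2, Padi3 and Padi4 of the second. They were taken as every probe set of the deposited expression table that the platform annotation gives to one of these symbols, which found 14 of 45101 probe sets, for 8 of 18194 genes named there. Tgm2 had 6 probe sets, Tgm3 had 2 and the other genes had 1 each. After the filter on dim signals, 13 of the 14 were tested. The one left out was a Tgm2 probe set below the background level on all 6 arrays.

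The arrays held total RNA from mouse hair follicle bulbs at postnatal day 9, in 3 groups of 2 samples. The emN1 bulbs came from a skin area labelled embryo-deleted and lack functional Notch1. The anN1 bulbs came from an area labelled anagen-deleted and still have functional Notch1. The third group was wild-type, and the design text uses both anN1 and wild-type as controls. The strain, the Cre line, the cells in which Notch1 was deleted and the number of animals were not stated in the sources used here. Replicates are labelled biological, so the p-values below measure the spread between these samples. Arrays were run as 2 sets: emN1 replicate 1 and anN1 replicate 1 in the first, and the other 4 in the second.

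Transglutaminases are calcium-dependent enzymes that join glutamine to lysine side chains and so crosslink proteins into insoluble sheets and networks. Peptidylarginine deiminases, also calcium-dependent, turn protein-bound arginine into citrulline, which alters the charge and folding of their substrates. In the hair follicle both families act on trichohyalin, a granule protein of the inner root sheath and medulla, which is deiminated and then crosslinked as these cells harden. In the epidermis, transglutaminases build the cornified envelope from involucrin, loricrin and small proline-rich proteins.

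Signals below are array intensities on a linear scale. Differences are in log2(signal + 17.8) and are given with the standard error (SE) of the fit. Each probe set has its own brightness, so levels were compared between samples and not between probe sets. The 2 Notch1 probe sets were checked first. Probe set 1418634_at read 6498 and 6292 in emN1, 15077 and 12527 in anN1, and 23750 and 34070 in wild-type (log2 difference of emN1 from the controls -1.55, SE 0.35, limma adjusted p = 0.0491). Probe set 1418633_at read 821 and 1561 in emN1, 1581 and 2789 in anN1, and 2833 and 3720 in wild-type. It was also lower in emN1 (-0.96, SE 0.17, limma adjusted p = 0.0211), although emN1 replicate 2 was only a little below anN1 replicate 1. In both Notch1 probe sets each anN1 array lay below each wild-type array. The median signal was 220 to 263 across the 6 arrays, and a background limit of 112 was taken from 20 undetected bacterial control probe sets. All 9 inner root sheath markers were tested, and their summed signal was 550511 to 593221 in emN1, 491878 to 499745 in anN1 and 466981 to 474354 in wild-type. Among differentiated epidermis markers, Flg was below the background limit on every array, while Krt10, Ivl, Lor and Dsg1a were above it on every array. Krt1 (40.7 to 187) and Krt2 (58.5 to 148) did not pass the filter on dim signals. That list summed to 21416 to 31559 in emN1, 20600 to 27092 in anN1 and 26453 to 26585 in wild-type. Dsg1a was the largest part of each sum, at 10409 and 20598 in emN1, 9731 and 18929 in anN1, and 20512 and 19987 in wild-type. In bulk bulbs, fewer cells of a type and less RNA per cell cannot be told apart.

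Against the 4 control arrays, 4 of the 8 genes were higher in emN1 bulbs (Tgm1, Tgm5, Padi1 and Padi3), Tgm2 was lower, and Tgm3, Padi2 and Padi4 did not pass the test. By probe set, 8 of 13 passed an adjusted p of 0.05 in limma, 4 higher and 4 lower, against 3.77% of all 27022 probe sets tested (2.41% higher and 1.37% lower). By gene, with the brightest tested probe set standing for each gene, 5 of 8 passed, 4 higher and 1 lower, against 5.41% of 12611 genes (3.58% higher and 1.83% lower). By gene the median log2 difference was 0.44, with 5 of 8 above 0, against -0.02 over all genes tested. By probe set it was -0.53, against -0.01 over all probe sets, with Tgm2 supplying 5 of the 13. Both emN1 arrays lay above all 4 control arrays for 3 of the 13 probe sets (9.99% of all) and below all 4 for 5 of them (9.33% of all). Outer root sheath and basal keratinocyte markers moved in the same samples. Of 8 tested, 4 were higher in emN1 (Krt5, Krt14, Krt15 and Col17a1) and Krt17 was lower. Their summed signal was 143980 to 161514 in emN1, 96522 to 111770 in anN1 and 102885 to 107053 in wild-type. Their part in the enzyme differences was not tested.

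These calls rest on few arrays. None of the 13 passed in limma without the intensity trend in the variance prior. At that setting 8 had an unadjusted p under 0.05, against 4044 of all 27022 probe sets. No call remained when emN1 replicate 1, emN1 replicate 2 or anN1 replicate 1 was left out, and without wild-type replicate 1 there were 5. Without the array set term, 1 passed (7 at an unadjusted p under 0.05, against 2783 of all probe sets).

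**Figure D1:**
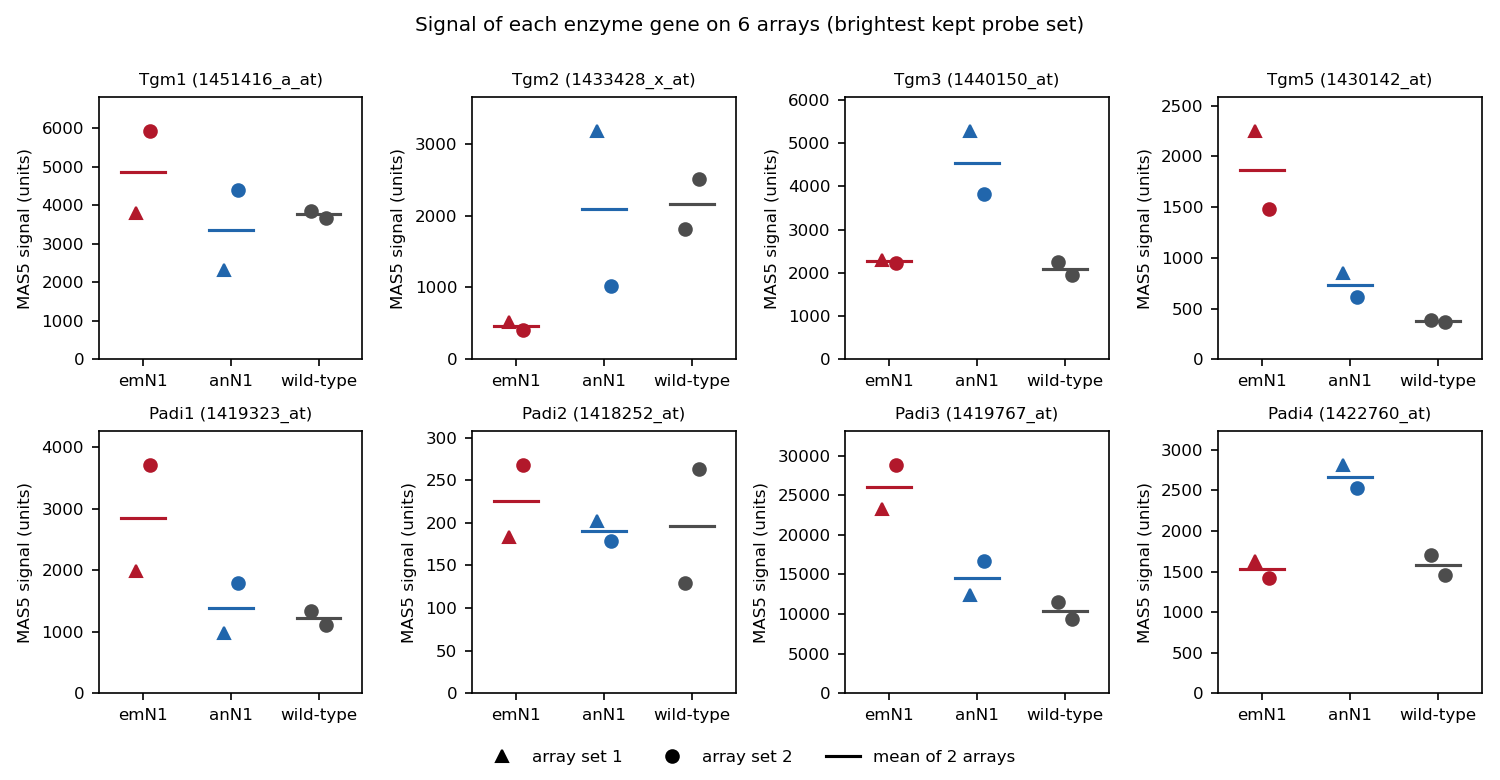
MAS5 signal (linear axis from 0) of each enzyme gene by its brightest tested probe set in emN1, anN1 and wild-type bulbs, 1 point per array, with triangles for the first array set, circles for the second and a line at the mean of 2 arrays. Tgm5, Padi1 and Padi3 have both emN1 points above all 4 controls, Tgm2 has both below them, and Tgm3 and Padi4 are highest in anN1.

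Tgm1 encodes keratinocyte transglutaminase, a membrane-anchored enzyme that crosslinks the cornified envelope. Its probe set 1451416_a_at read 3789 and 5919 in emN1, 2314 and 4402 in anN1, and 3849 and 3673 in wild-type. These groups overlapped, since emN1 replicate 1 lay below anN1 replicate 2 and wild-type replicate 1. With array set as a term of the fit, Tgm1 was 1.55-fold higher in emN1 than in the controls (log2 difference 0.63, SE 0.13, limma adjusted p = 0.0377). Without that term it did not pass (0.45, limma adjusted p = 0.704), and it was called in 6 of 14 alternative settings. Within the first array set, emN1 exceeded anN1 by 0.71 in log2, and within the second by 0.43. Against each control alone the difference did not pass, with limma adjusted p = 0.130 against anN1 and 0.0848 against wild-type.

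Tgm5 encodes a transglutaminase of the upper epidermis and the hair follicle, whose loss in humans causes skin peeling. Its probe set 1430142_at read 2249 and 1485 in emN1, 854 and 619 in anN1, and 387 and 364 in wild-type. No groups overlapped, and each emN1 array was above each control. Tgm5 was 2.98-fold higher in emN1 than in the controls (1.57, SE 0.27, limma adjusted p = 0.0171), the largest rise among the 13 tested probe sets. It rose 2.48-fold against anN1 (1.31, SE 0.24, limma adjusted p = 0.0439) and 3.92-fold against wild-type (1.97, SE 0.27, limma adjusted p = 0.0153). Within array sets the emN1 to anN1 difference was 1.38 in the first and 1.24 in the second.

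Tgm2 encodes tissue transglutaminase, a widely made form that also binds GTP and acts inside and outside cells. Against the joined controls, 4 of its 5 tested probe sets passed, all lower in emN1. Probe set 1433428_x_at read 518 and 412 in emN1, 3174 and 1014 in anN1, and 1807 and 2505 in wild-type. Both emN1 arrays lay below every control array, and the anN1 replicates spread more widely than the wild-type ones. The signal was 4.63-fold lower in emN1 than in the controls (log2 difference -2.21, SE 0.35, limma adjusted p = 0.0123).

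Probe set 1437277_x_at read 382 and 281 in emN1, 2288 and 726 in anN1, and 1293 and 1536 in wild-type (-2.18, SE 0.32, limma adjusted p = 0.0103). Probe set 1455900_x_at read 190 and 188 in emN1, 1194 and 605 in anN1, and 1172 and 1496 in wild-type (-2.42, SE 0.36, limma adjusted p = 0.0107). All 3 probe sets are of the _x_at type, whose probes may also bind other transcripts. Probe set 1417500_a_at, which is not of that type, read 277 and 214 in emN1, 504 and 601 in anN1, and 675 and 786 in wild-type. It was 2.44-fold lower in emN1 (-1.29, SE 0.28, limma adjusted p = 0.0477). This call was kept in 3 of 14 alternative settings, against 8, 8 and 10 for the 3 _x_at probe sets. It was lost with no filter (limma adjusted p = 0.0774) and with quantile normalization (limma adjusted p = 0.0511). The sign was the same in all 14.

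The fifth tested Tgm2 probe set, 1426004_a_at, read 239 and 287 in emN1, 334 and 316 in anN1, and 418 and 322 in wild-type. Its emN1 signals were also the 2 lowest, but the difference did not pass (-0.34, 95% interval -1.02 to 0.34, limma adjusted p = 0.644). The probe set left out as dim, 1438942_x_at, read 80.3 and 70.9 in emN1, 10.6 and 9.62 in anN1, and 15.4 and 33.8 in wild-type, all under the background limit of 112. In this dim probe set both emN1 signals lay above every control signal, the opposite order to the tested ones. The 5 tested Tgm2 probe sets differed in the size of the change, from -0.34 to -2.42. Across the 6 arrays their signals correlated with each other with r between 0.67 and 1.00, a description over arrays that share groups and sets.

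**Figure D2:**
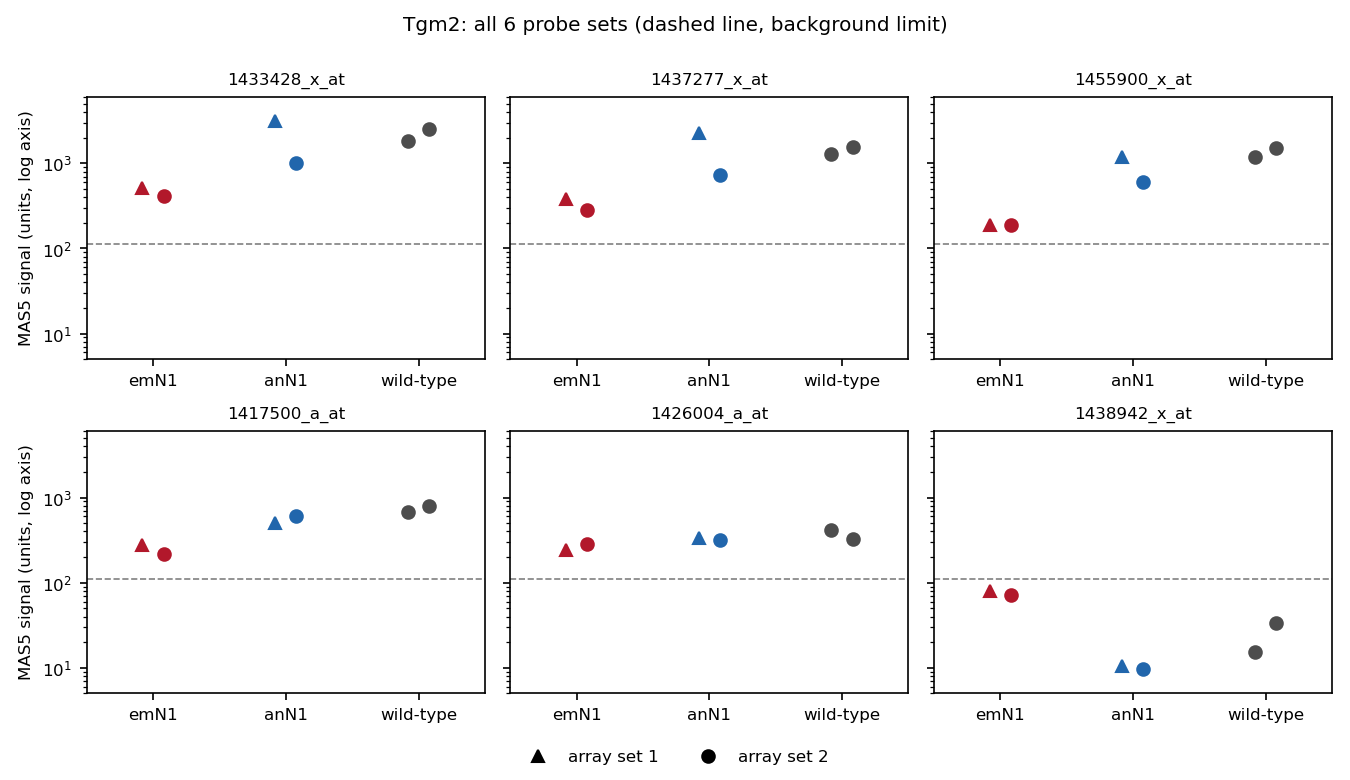
Signal (linear intensity, log axis) of the 6 Tgm2 probe sets on each array, grouped as emN1, anN1 and wild-type, with a line at the background limit of 112. The 5 tested probe sets have their 2 lowest signals in emN1, and the sixth is under the limit on all 6 arrays.

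Against anN1 alone, the 3 _x_at probe sets of Tgm2 had log2 differences of -1.92, -1.92 and -2.07 (limma adjusted p = 0.0403, 0.0366 and 0.0284 for 1433428_x_at, 1437277_x_at and 1455900_x_at). Against wild-type they had -2.65, -2.56 and -2.94 (limma adjusted p = 0.0183, 0.0186 and 0.0118). Probe set 1417500_a_at passed against neither control alone (limma adjusted p = 0.173 against anN1 and 0.0953 against wild-type). Within the first array set, 1433428_x_at was lower in emN1 than in anN1 by a log2 difference of -2.58, and within the second by -1.26. Pigment cell genes fell in the same samples: 6 of 7 tested melanocyte markers were lower in emN1, with a summed signal of 93171 to 111431 in emN1, 255099 to 299053 in anN1 and 206263 to 223430 in wild-type. Endothelial markers, from a cell type that can make Tgm2, summed to 499 to 1080 in emN1, 939 to 1107 in anN1 and 846 to 1040 in wild-type. Pecam1 and Tie1 were below background on every array. Markers of other cell types that can make Tgm2 were higher in emN1: 4 of 5 tested for smooth muscle and pericytes, 5 of 10 for dermal papilla and fibroblasts, and 3 of 8 for macrophages and other leukocytes, with 0 lower in each. The smooth muscle and pericyte markers summed to 42552 to 43134 in emN1, 19700 to 23524 in anN1 and 16669 to 17109 in wild-type. The part of any of these cell types in the Tgm2 difference was not tested.

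Tgm3 encodes the soluble transglutaminase of the inner root sheath, hair shaft and epidermis, which crosslinks trichohyalin. Its probe set 1440150_at read 2304 and 2233 in emN1, 5278 and 3819 in anN1, and 2242 and 1944 in wild-type. Both anN1 arrays were above all others, while emN1 lay beside wild-type. Tgm3 fell 1.97-fold in emN1 against anN1 (-0.98, SE 0.18, limma adjusted p = 0.0424). Its difference from wild-type was -0.01 with a 95% interval of -0.47 to 0.45, and its difference from the joined controls did not pass (-0.59, limma adjusted p = 0.397). The second probe set, 1421355_at, read 602 and 1139 in emN1, 1506 and 1804 in anN1, and 1231 and 794 in wild-type. Its difference from anN1 had the same size as that of the first but did not pass (-0.98, SE 0.29, limma adjusted p = 0.187).

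The deiminase genes lie side by side on mouse chromosome 4, in the order Padi6, Padi4, Padi3, Padi1 and Padi2 in the RefSeq annotation of GRCm38.p6, with 0 protein-coding genes between neighbours. Padi6, a gene of the egg, did not pass the filter on dim signals. Of the 4 measured members, Padi1 and Padi3 were higher in emN1 than in the controls, while Padi2 and Padi4 did not pass the test. Responses were not compared between genes. The interval of the Padi2 difference, -0.69 to 1.20, held the Padi3 difference of 1.11, so it cannot show that Padi2 responded differently. The RefSeq promoter sequences of these 4 members are shown. Each is written 5′ to 3′ on the gene's own strand, from 250 bases before the start to 50 after it. Capitals mark the motifs found: the core TGGGAA bound by RBPJ, the DNA-binding partner of Notch, the AP-1 site TGANTCA, the GC box GGGCGG and the TATA box TATAAA, each on both strands. The windows are Padi4 at chr4:140774154-140774453 on the minus strand, Padi3 at chr4:140810599-140810898 on the minus strand, Padi1 at chr4:140845729-140846028 on the minus strand and Padi2 at chr4:140906110-140906409 on the plus strand, all in GRCm38.p6.
Padi4: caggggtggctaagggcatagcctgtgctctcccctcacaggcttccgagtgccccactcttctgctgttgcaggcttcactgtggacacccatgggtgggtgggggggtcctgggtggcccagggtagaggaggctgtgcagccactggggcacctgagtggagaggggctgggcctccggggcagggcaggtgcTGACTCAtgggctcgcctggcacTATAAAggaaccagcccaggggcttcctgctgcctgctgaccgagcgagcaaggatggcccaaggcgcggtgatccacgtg
Padi3: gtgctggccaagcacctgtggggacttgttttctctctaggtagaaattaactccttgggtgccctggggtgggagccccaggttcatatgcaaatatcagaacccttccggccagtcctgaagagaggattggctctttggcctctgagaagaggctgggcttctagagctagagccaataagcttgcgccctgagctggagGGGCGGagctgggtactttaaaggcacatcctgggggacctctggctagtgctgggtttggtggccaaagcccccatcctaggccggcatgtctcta
Padi1: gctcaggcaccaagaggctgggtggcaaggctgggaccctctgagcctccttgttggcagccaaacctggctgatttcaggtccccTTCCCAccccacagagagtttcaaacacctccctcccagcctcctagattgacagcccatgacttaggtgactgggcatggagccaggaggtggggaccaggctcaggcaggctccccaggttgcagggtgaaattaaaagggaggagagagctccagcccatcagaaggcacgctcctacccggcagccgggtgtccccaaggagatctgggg
Padi2: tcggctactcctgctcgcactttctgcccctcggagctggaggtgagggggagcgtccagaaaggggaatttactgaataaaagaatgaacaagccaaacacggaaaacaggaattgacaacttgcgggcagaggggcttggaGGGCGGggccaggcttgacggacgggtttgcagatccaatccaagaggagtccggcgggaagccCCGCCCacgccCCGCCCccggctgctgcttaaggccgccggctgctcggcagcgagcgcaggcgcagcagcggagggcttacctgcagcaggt

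Among these 4 windows, an RBPJ core was found in that of Padi1, at position -164 from the start and on the reverse strand. The Padi3 window held a GC box at -47. The Padi4 window held an AP-1 site at -54 and a TATA box at -31, and the Padi2 window held 3 GC boxes. Of the transglutaminase genes, Tgm1, Tgm3 and Tgm5 had windows in the table: Tgm1 held an RBPJ core at -64 and Tgm3 one at 25, with a TATA box at -28. Tgm2 was named only. In all, 7 members had 8 windows, as Tgm1 had 2. The RBPJ core was in 3 of the 8 windows, each of a different gene, against 25.6% of 32851 mouse promoters. The GC box was in 3 of 8, against 35.7%, the TATA box in 2 against 13.6%, and the AP-1 site in 1 against 7.81%. A LEF/TCF core (CTTTGA) was in 1 Tgm1 window (16.0% of all), and a GATA site (AGATAA) in 0 of 8 (11.2% of all). The 6 motifs were searched on both strands and no matches overlapped. A match describes letters and not a bound site.

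Padi1 encodes a deiminase of the upper epidermis and the inner root sheath. Its probe set 1419323_at read 1985 and 3707 in emN1, 988 and 1790 in anN1, and 1348 and 1105 in wild-type. Both emN1 arrays were above all 4 controls, although emN1 replicate 1 was only a little above anN1 replicate 2. Padi1 was 2.36-fold higher in emN1 than in the controls (1.24, SE 0.22, limma adjusted p = 0.0209). It rose against anN1 (1.02, SE 0.19, limma adjusted p = 0.0495) and against wild-type (1.58, SE 0.21, limma adjusted p = 0.0158). The emN1 to anN1 difference was 0.99 in the first array set and 1.04 in the second.

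Padi3 encodes the deiminase of the inner root sheath and medulla, whose mutations in humans cause uncombable hair. Its probe set 1419767_at read 23283 and 28750 in emN1, 12354 and 16718 in anN1, and 11485 and 9334 in wild-type. No groups overlapped, with emN1 highest and wild-type lowest. Padi3 was 2.16-fold higher in emN1 than in the controls (1.11, SE 0.21, limma adjusted p = 0.0271). It rose 1.80-fold against anN1 (0.85, SE 0.13, limma adjusted p = 0.0240) and 2.84-fold against wild-type (95% interval of the log2 difference 1.17 to 1.84, limma adjusted p = 0.00470). Its adjusted p against wild-type was the lowest of the 13 in any comparison. The part of the inner root sheath markers in the Padi1 and Padi3 differences was not tested. Of those 9 markers, Krt26 and Krt72 were higher in emN1, 7 did not pass, and 0 were lower.

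Padi4 encodes the deiminase with a nuclear localisation signal, best known for citrullinating histones in granulocytes. Its probe set 1422760_at read 1631 and 1425 in emN1, 2808 and 2525 in anN1, and 1709 and 1455 in wild-type. As with Tgm3, both anN1 arrays were above all others and emN1 overlapped wild-type. The difference of emN1 from anN1 did not pass (-0.80, SE 0.18, limma adjusted p = 0.0872), nor did that from the joined controls (-0.53, limma adjusted p = 0.314). Against wild-type the 95% interval was -0.60 to 0.34 around -0.13. Granulocyte markers summed to 3512 to 4508 in emN1, 2981 to 5551 in anN1 and 1285 to 1789 in wild-type. Against the joined controls, 0 of 3 tested passed the threshold. The largest part of each sum was S100a8 alone, at 2510 and 3062 in emN1, 3989 and 2262 in anN1, and 724 and 875 in wild-type. S100a8 did pass for emN1 against wild-type alone (1.64, limma adjusted p = 0.0458). Elane, Mpo, Camp and Ltf did not pass the filter on dim signals, and Cxcr2 was below background on every array. Their part in the Padi4 level was not tested.

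Padi2 encodes a widely made deiminase of muscle, brain and other tissues. Its probe set 1418252_at read 184 and 267 in emN1, 202 and 178 in anN1, and 129 and 263 in wild-type. All signals were within a few multiples of the background limit of 112, and the groups overlapped. The difference from the controls was 0.26 with a 95% interval of -0.69 to 1.20 (limma adjusted p = 0.831), an interval that spans both a fall and a rise.

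**Figure D3:**
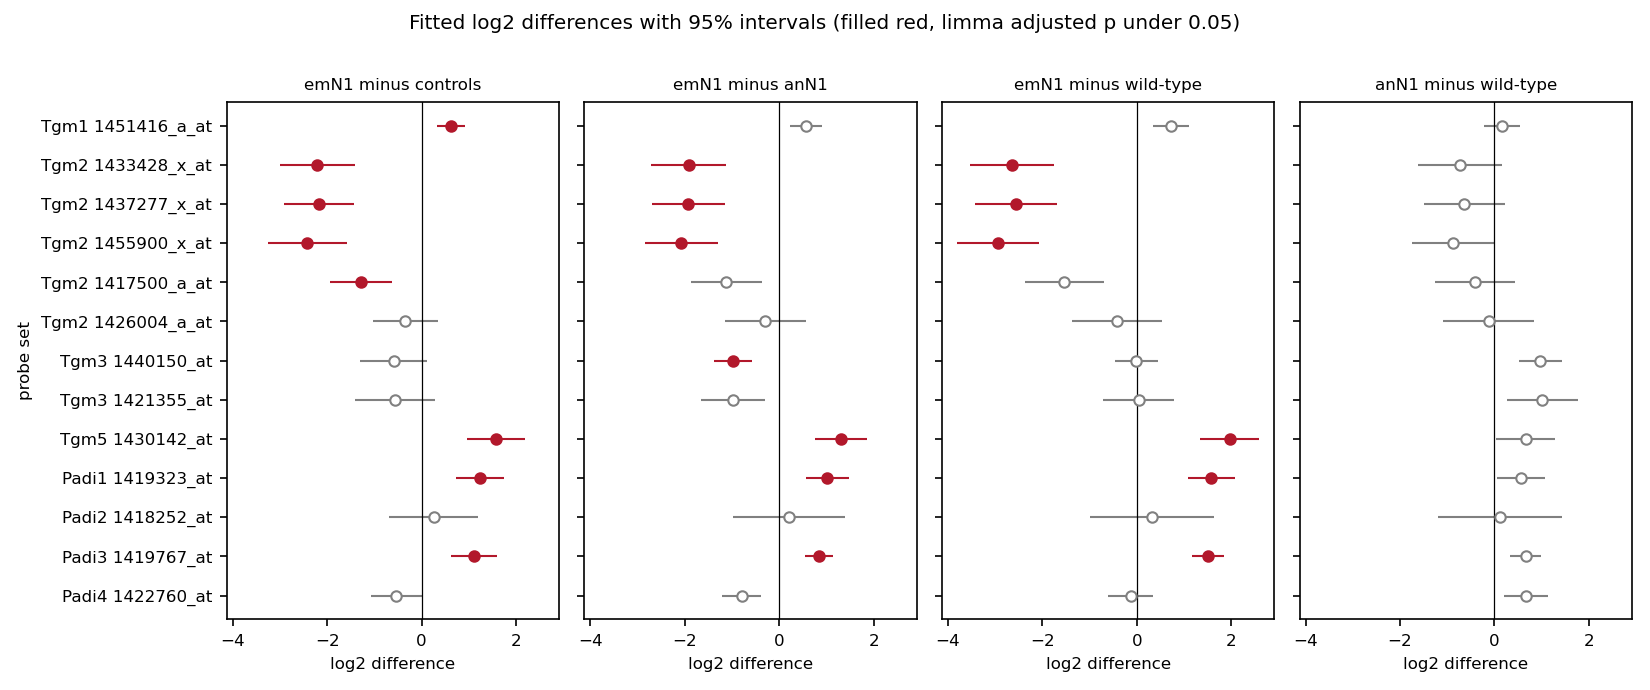
Differences in log2(signal + 17.8) of the 13 tested probe sets for emN1 against the joined controls, emN1 against anN1, emN1 against wild-type and anN1 against wild-type, 1 panel each, with 95% intervals of the fit and probe sets past the threshold filled. Tgm5, Padi1 and Padi3 lie above 0 and the 3 _x_at Tgm2 probe sets below 0 against both controls, while Tgm3 and Padi4 lie below 0 against anN1 and near 0 against wild-type.

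Against anN1 alone, 7 of the 13 probe sets passed in limma, 3 higher (1.35% of all) and 4 lower (0.662% of all), against 2.02% of all probe sets. The higher ones were Tgm5, Padi1 and Padi3, and the lower ones were the 3 _x_at probe sets of Tgm2 and 1440150_at of Tgm3. Against wild-type alone, 6 of 13 passed, 3 higher (1.53% of all) and 3 lower (0.629% of all), against 2.16% of all. They were the same probe sets without the Tgm3 one. The 2 comparisons share the emN1 arrays and are not separate evidence. Leaving out either emN1 or either anN1 array left 0 calls in each of them.

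Between anN1 and wild-type, the 2 control groups, 0 of 13 probe sets passed in limma, against 0.074% called of all (0.0518% higher and 0.0222% lower). At an unadjusted p under 0.05 there were 7 of the 13, against 984 of all 27022. The anN1 signals were above both wild-type arrays for Tgm3, Tgm5, Padi3 and Padi4. They were below both for 1417500_a_at of Tgm2 and for its dim probe set. The share of all probe sets with such an order was not counted. Tgm3 (1440150_at) differed by 0.97 (SE 0.20, limma adjusted p = 0.483), Padi3 by 0.66 (SE 0.14, limma adjusted p = 0.600) and Padi4 by 0.66 (SE 0.20, limma adjusted p = 0.999). Without wild-type replicate 1, Padi3 passed (0.81, limma adjusted p = 0.0332). That fit has 1 wild-type array, assumed to vary like the other groups, and it called 162 of all probe sets, against 20 with all arrays. For Tgm5 the difference was 0.66 (95% interval 0.04 to 1.28, limma adjusted p = 0.999). Within the second array set, which holds both controls, anN1 was above wild-type by 0.87 for Tgm3 (1440150_at), 0.67 for Padi4, 0.69 for Padi3 and 0.70 for Tgm5.

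**Figure D4:**
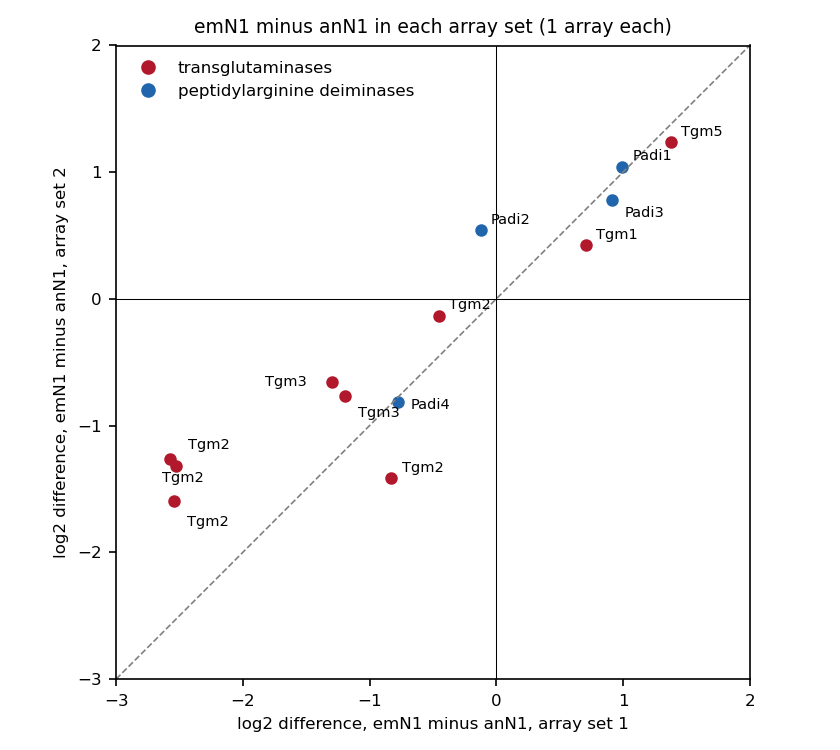
Difference in log2(signal + 17.8) between emN1 and anN1 in the first array set (x axis) and in the second (y axis), 1 point per tested probe set, with transglutaminases in red and deiminases in blue and a dashed line of equal differences. The differences have the same sign in both sets for all 13 probe sets except Padi2, at -0.12 and 0.54.

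The remaining family genes were mostly dim. Of Tgm4, Tgm6, F13a1, F13b, Epb42 and Padi6, which were on the array, 2 were tested, and F13a1 passed. F13a1 encodes the transglutaminase subunit of clotting factor XIII, made by macrophages and platelets among other cells. It read 453 and 852 in emN1, 53.5 and 169 in anN1, and 321 and 164 in wild-type, and was higher in emN1 than in the controls (2.26, SE 0.40, limma adjusted p = 0.0209). Both emN1 arrays were above all controls. Leukocyte markers moved with it: their summed signal was 5666 to 6087 in emN1, 1628 to 1961 in anN1 and 1598 to 1921 in wild-type, with 3 of 8 higher and Aif1 and Cd3e below background on every array. Their part in the F13a1 difference was not tested. Tgm6, a neighbour of Tgm3, read 1704 and 2828 in emN1, 1096 and 1807 in anN1, and 1375 and 795 in wild-type, and did not pass (0.95, limma adjusted p = 0.168).

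Transcripts of candidate substrates were tested as a list of 51 gene symbols, of which 41 were on the array and 23 passed the filter. Whether the enzymes modify these proteins in the bulbs was not tested. In emN1 against the controls 4 were higher, 1 was lower and 18 did not pass (3.58% higher and 1.83% lower over all genes). The median log2 difference was 0.25, against -0.02 over all genes tested. Trichohyalin itself (Tchh) read 42104 and 55470 in emN1, 43822 and 49507 in anN1, and 49470 and 43994 in wild-type, with a difference of 0.11 (SE 0.10, limma adjusted p = 0.651). Tchhl1, a relative of trichohyalin, was the one that fell. It read 367 and 388 in emN1, 2211 and 1570 in anN1, and 875 and 660 in wild-type (-1.78, SE 0.40, limma adjusted p = 0.0487), the anN1 arrays being highest as for Tgm3 and Padi4.

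The list's rises were in Slpi, a secreted protease inhibitor (2.00, SE 0.40, limma adjusted p = 0.0340), Fn1, the matrix protein fibronectin (0.87, SE 0.11, limma adjusted p = 0.00660), Vim, the mesenchymal filament vimentin (0.79, SE 0.10, limma adjusted p = 0.00553), and Sprr1a, a small proline-rich envelope protein (0.72, SE 0.10, limma adjusted p = 0.00958). Fibroblast and dermal papilla markers summed to 104884 to 124583 in emN1, 72356 to 75321 in anN1 and 68752 to 88548 in wild-type, with 5 of 10 higher. Of the smooth muscle and pericyte markers, whose sums are given above, Acta2, Tagln, Cspg4 and Pdgfrb were higher. The part of these cells in the Fn1 and Vim differences was not tested.

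A list of proteases and protease inhibitors gave 2 higher and 0 lower of 14 tested (3.58% and 1.83% over all genes), with a median of 0.17. Whether they act on transglutaminases in these bulbs was not tested. Klk7, a serine protease of the outermost skin layer, read 24026 and 17522 in emN1, 5973 and 7064 in anN1, and 3371 and 4209 in wild-type (1.95, SE 0.26, limma adjusted p = 0.00661). Cst6, cystatin M/E, inhibits the proteases that activate Tgm3. It read 5179 and 3706 in emN1, 2009 and 1398 in anN1, and 482 and 781 in wild-type (1.85, SE 0.39, limma adjusted p = 0.0392). For both genes the emN1 arrays were above all controls.

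Calcium switches these enzymes on, but calcium itself was not measured. Of 9 calcium entry and sensing genes tested, 2 were higher and 0 lower, with a median of 0.29. Over all genes, 3.58% were higher and 1.83% lower. The 7 that did not pass were Casr, Atp2a2, Atp2c1, Trpv6, Trpv4, Orai1 and Stim1. Calm4, a calmodulin-like protein of skin, read 39464 and 25297 in emN1, 3517 and 4637 in anN1, and 1848 and 3019 in wild-type. Both emN1 arrays were far above all controls (3.25, SE 0.31, limma adjusted p = 0.00248). Calml3, another calmodulin-like protein of epithelia, also rose (1.26, SE 0.18, limma adjusted p = 0.00877).

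**Figure D5:**
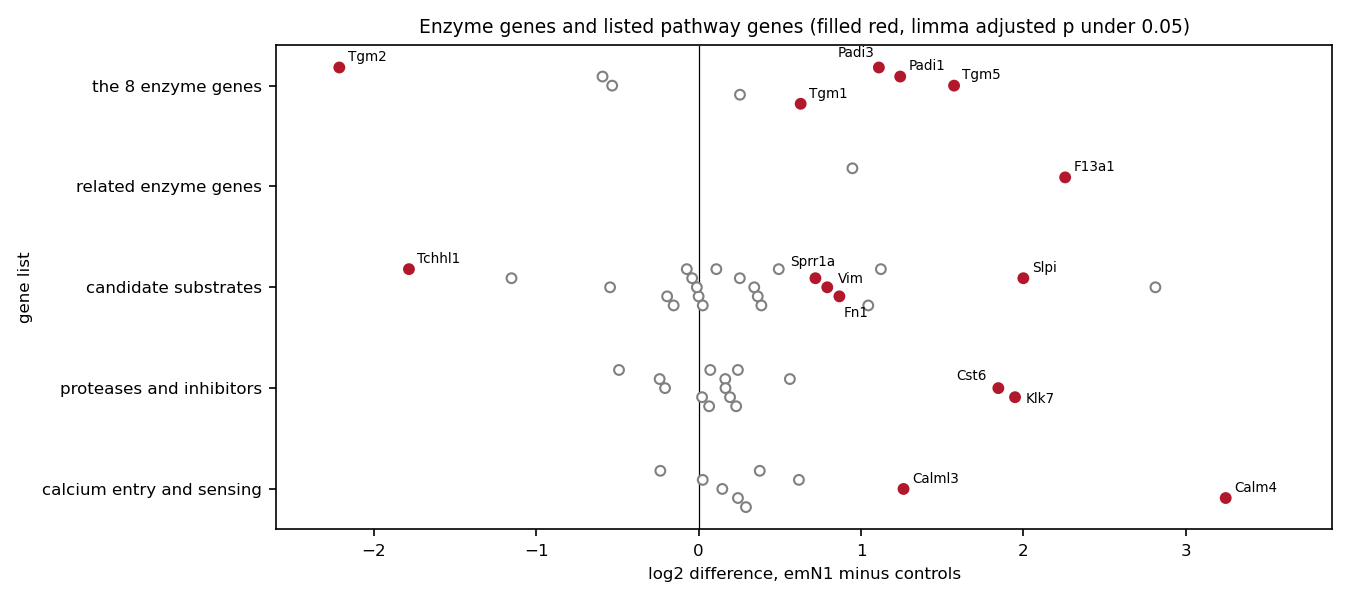
Differences in log2(signal + 17.8) between emN1 and the controls for the 8 enzyme genes and the tested genes of the 4 related lists, 1 point per gene by its brightest tested probe set, with those past the threshold filled. Calm4 is highest at 3.25, Tgm2 lowest at -2.21, and most genes of each related list other than the family genes did not pass.

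Across the 6 arrays the 8 genes did not follow a single pattern. These correlations are descriptions over arrays that share groups and sets. Padi1 and Padi3 had r = 0.92, and Tgm2 ran against both (r = -0.94 with each). Tgm3 and Padi4, the genes highest in anN1, had r = 0.97. Tgm5 went with Padi3 (r = 0.87) and less with Tgm1 (r = 0.20), whereas Tgm1 went with Padi1 (r = 0.87).

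Among 12603 other genes, each by its brightest tested probe set, the pattern most like that of Tgm5 was Sprr1a (r = 1.00), which read 106563 and 89387 in emN1, 69041 and 59509 in anN1, and 48833 and 48303 in wild-type, followed by Ly6g6g (r = 1.00). The nearest to Tgm1 were Pnpla8 and Spata2 (r = 0.99 each), and to Tgm2 Scaper (r = 1.00) and Rnf14 (r = 0.99). For Tgm3 they were D530017H19Rik and Sqle (r = 0.99 each), for Padi1 6430571L13Rik (r = 1.00) and Fam43a (r = 0.99), and for Padi3 Vps37a and Adamtsl5 (r = 0.99 each). Padi4 had Fig4 (r = 0.99) and Cdkl3 (r = 0.98), and Padi2, the dimmest, had Mybpc3 (r = 0.98) and Nepro (r = 0.97). The number of genes with r over 0.95 was 170 for Tgm5, 96 for Padi3, 77 for Tgm1, 59 for Tgm2, 58 for Padi1, 15 for Tgm3, 10 for Padi4 and 4 for Padi2.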

How the data were processed

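RNA of hair follicle bulbs was measured on 6 one-colour oligonucleotide arrays. The deposited table gives 1 linear-scale intensity for each probe set, computed by the authors with MAS5 per the submitters' processing notes (version not stated). The trimmed mean was 1500 on every array, so no rescaling was applied. The number of arrays limits the precision. Of 45101 probe sets, 64 controls were left out. In the platform annotation 34958 had 1 gene symbol, 932 several and 9211 none, and 34754 symbols matched the RefSeq annotation of GRCm38.p6 (0 changed), which also gave the promoters.

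Tests used log2(signal + 17.8), where 17.8 is the 10th percentile of all values, so differences understate changes of dim genes. The upper 60% by mean log2 signal were kept (27022). The background limit is the 95th percentile of 120 values. limma 3.58.1 in R 4.3.3 (lmFit, eBayes with an intensity trend, two-sided, Benjamini-Hochberg over all kept probe sets, threshold 0.05) was run on emN1 against 4 controls (3 residual degrees of freedom) and on 3 groups (2 residual degrees of freedom), with array set as a term. The step was tested on simulated data. Figures used matplotlib 3.10.9.

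The design text makes replicate number and array set the same for emN1 and anN1, which pairs them. Replicate differences correlated with r = 0.38 between emN1 and anN1, and -0.19 and -0.02 for pairs with wild-type.

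The members and gene lists were chosen with earlier results of these data known. All member probe sets are given. From each related list, up to 4 called genes with the largest changes are named, or else the 2 with the smallest p, and per member the 2 genes most like it over the arrays. Tchh, Tgm4, Tgm6, F13b, Epb42 and Padi6 were named outside this rule. Alternatives covered the addend, filter, trend, normalization, array set term, a floor at background and each array left out.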

Additional observations from a re-analysis of the deposited data

How the results depend on the processing

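The addends 1 and 100, quantile normalization, no filter, and signals raised to the background limit kept every count of called member and of all probe sets within 1.5 times its value. Without the intensity trend, 0 members passed in limma for emN1 against the joined controls, anN1 and wild-type. At an unadjusted p under 0.05 there were 8, 11 and 8 members, against 4044, 3109 and 3003 of all probe sets. At that setting 0 of all probe sets passed in these comparisons and in anN1 against wild-type. Without the array set term, 1, 0 and 2 members passed (286, 42 and 215 of all probe sets). With the replicate number as a block in its place, 1, 0 and 2 members passed (288, 73 and 262 of all). Leaving out 1 array gave 0 to 7 members against the joined controls (1 to 1100 of all), 0 to 9 against anN1 (0 to 1261), 0 to 6 against wild-type (0 to 1332) and 0 to 1 for anN1 against wild-type (0 to 162). Leaving out emN1 or anN1 replicate 1 leaves 1 array in the first set, which the set term absorbs, so these use the second set alone. Of the single values under alternatives, 552 kept direction and side of the threshold, 144 lost and 5 gained a call, and 27 turned sign, none of them called.

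For emN1 against wild-type, Tgm3 1440150_at turned to 0.12 without the array set term and with the replicate block (-0.32 to 0.10 with an array left out). Tgm3 1421355_at turned to -0.25 in both and to -0.023 with quantile normalization (-0.44 to 0.35 with an array left out). For anN1 against wild-type, Tgm1 turned to -0.23 in both (-0.055 to 0.23 with an array left out). The other turned values came from leaving out an array. For anN1 against wild-type, Tgm2 1433428_x_at ran over -1.06 to 0.25, 1437277_x_at over -0.94 to 0.27, 1426004_a_at over -0.31 to 0.11, and Padi2 over -0.35 to 0.61. Padi2 ran over -0.12 to 0.51 against the joined controls, -0.12 to 0.54 against anN1 and -0.17 to 0.79 against wild-type. The cause was not tested. Signals of Padi2 and the dim Tgm2 probe set near background limit what can be seen of them.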

Other observations

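The 3′ to 5′ signal ratio of the Gapdh control probe sets, a measure of RNA quality, was 4.79 and 4.90 in emN1, 6.96 and 4.64 in anN1, and 5.45 and 5.03 in wild-type. That of beta-actin was 4.59 and 2.39 in emN1, 5.64 and 2.39 in anN1, and 2.71 and 2.66 in wild-type, so that the 2 arrays of the first set had the highest values. On anN1 replicate 1, the array with the highest ratio of both controls, Tgm1 and Padi1 had their lowest signal, and Tgm2 (1433428_x_at and 1437277_x_at), Tgm3 (1440150_at) and Padi4 their highest. The other Tgm3 probe set, 1421355_at, was highest on anN1 replicate 2. The part of RNA quality in these signals was not tested. Loricrin (Lor), an envelope protein crosslinked by Tgm1 and Tgm3, read 891 and 561 in emN1, 1954 and 903 in anN1, and 1449 and 1631 in wild-type, and fell against wild-type (-1.54, limma adjusted p = 0.0289). Its difference from the joined controls was -1.15 and just missed the threshold (limma adjusted p = 0.0501). Involucrin (Ivl), another envelope protein, read 6986 and 7636 in emN1, 5435 and 4639 in anN1, and 2029 and 1569 in wild-type, and was higher against wild-type (2.00, limma adjusted p = 0.00515) with the joined controls not passed (1.12, limma adjusted p = 0.238). Lor and Ivl were chosen after their values were seen.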
